A study of Homo sapiens with 6 samples.

Results

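The 10 genes described here, ATR, ATRIP, ATM, CHEK1, CHEK2, CLSPN, TIMELESS, TIPIN, WEE1 and CDC25A, encode the core of the replication checkpoint. They were taken by symbol from a deposited table of read counts for 57773 genes. Each symbol matched 1 row, and all 10 genes passed the filter on low counts, which kept 16290 genes. The counts came from RNA sequencing of a single established line of human liposarcoma, SW872, grown in RPMI-1640 medium with serum. In the Apatinib group, 3 replicates, biological ones by the study's methods, were exposed to 18 μM Apatinib, an inhibitor of the VEGFR2 tyrosine kinase, for 24 h. The control group held 3 replicates of the same line labelled as control, and a vehicle is not named in the labels.

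When a replication fork stalls, single-stranded DNA coated by RPA recruits the kinase ATR through its partner ATRIP. ATR then phosphorylates CHK1, the product of CHEK1, with the help of the mediators Claspin (CLSPN), TIMELESS and TIPIN. Active CHK1 promotes the destruction of the phosphatase CDC25A and, together with the kinase WEE1, keeps CDK1 and CDK2 inhibited so that cells do not enter mitosis with unreplicated DNA. ATM and its effector CHK2, the product of CHEK2, respond to double-strand breaks in the same way. Transcripts of several of these genes rise in late G1 and S phase under E2F control, and the proteins are further controlled by phosphorylation and degradation, which RNA counts do not measure.

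The total counts ranged from 17043314 to 22067558 per replicate. Control replicates 1 and 2 nearly coincided: their chi-square averaged 2.27 per gene, against 18.2 to 44.5 for the remaining pairs of one group, and the calls of the checkpoint genes are also given without them. The line expressed the mesenchymal markers VIM at 881 to 1263 FPKM and FN1 at 273 to 440 FPKM, and the adipocyte regulator PPARG at 19.7 to 27.1 FPKM (fragments mapped to a gene, divided by its length and by sequencing depth). Of 7 adipocyte markers, 3 had 0 counts in every replicate, among them FABP4 and ADIPOQ, as did the leukocyte marker PTPRC, and all 5 epithelial markers examined stayed under 1 FPKM. KDR, the gene of VEGFR2, had 4 to 11 counts. The summed level of 4 endothelial markers was 2.06 to 2.68 FPKM with Apatinib and 2.03 to 2.45 FPKM in the control, and that of 5 immune markers was 7.78 to 13.3 against 3.77 to 5.07 FPKM, mostly from CD68, which had at most 1 count. Single markers of these lists changed: the endothelial CDH5 fell (log2 fold change -1.22, edgeR FDR = 0.0242) while VWF (1.52, edgeR FDR = 0.0386), the adipocyte lipase LPL (0.84, edgeR FDR = 0.0237) and the collagen gene COL3A1 (1.18, edgeR FDR = 0.00955) rose. Without control replicate 1 none of these 4 calls held (edgeR FDR 0.0564 to 0.146), and without control replicate 2 only that of COL3A1 did, at an FDR of 0.0377. The summed level of 7 mesenchymal markers was 1489 to 1689 FPKM with Apatinib and 1201 to 1310 FPKM in the control, without overlap, and 6 of the 7 had a log2 fold change above 0. The part of these markers in the results below was not tested.

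Part of this checkpoint module was lower with Apatinib. Differentially expressed genes (DEGs) had to pass an FDR limit of 0.05 in edgeR's quasi-likelihood test over all genes tested and change by more than 0.5 on the log2 scale. On that rule 5 of the 10 genes fell, namely CLSPN, CDC25A, ATM, ATR and CHEK1, and none of the 10 rose. Among all genes tested, 11.5% were DEGs, 5.48% in the downward and 5.97% in the upward direction. With the FDR limit alone the same 5 genes passed, beside 6.07% of all genes in the downward direction. DESeq2, the tool named in the study's methods, also called these 5 genes, and 13.5% of all genes tested. The other 5 genes, TIPIN, TIMELESS, ATRIP, WEE1 and CHEK2, had log2 fold changes between -0.40 and -0.18 and were not DEGs. These fits count the nearly coinciding control replicates 1 and 2 as separate replicates. With those replicates summed, edgeR called only CLSPN of the 10 genes, and 292 genes in all. The edgeR FDR was then 0.094 for CDC25A, 0.108 for ATM, 0.113 for CHEK1 and 0.184 for ATR. The median log2 fold change of the 10 genes was -0.49, against 0.00 over all genes tested. All 10 had a log2 fold change below 0, as did 49.7% of all genes tested. In 7 of the 10 genes the highest Apatinib value was below the lowest control value, a pattern found in 15.7% of all genes tested, and 33.2% were free of overlap in either direction. Because the RNA came from whole cultures, fewer cells in S phase and less transcript per cell cannot be told apart.

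**Figure D1:**
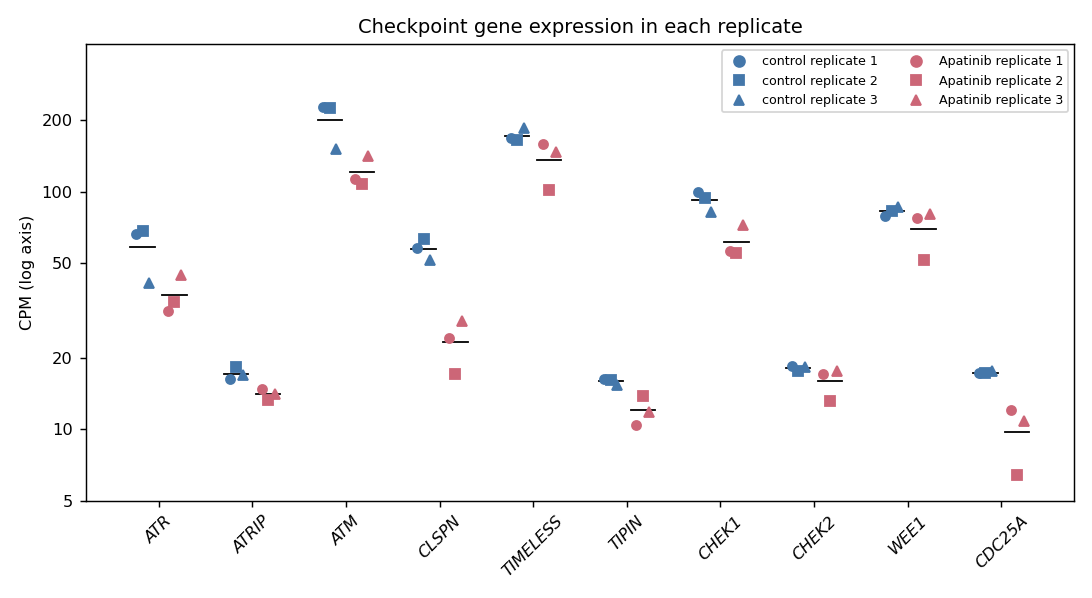
Expression of the 10 checkpoint genes in CPM (read counts scaled by library size and TMM factor, log axis) in each of the 3 control and 3 Apatinib replicates, with group means as black lines. CLSPN and CDC25A show the widest gap between the groups, and for ATR and ATM control replicate 3 sits near the Apatinib replicates.

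CLSPN (ENSG00000092853) encodes Claspin, the adaptor that presents CHK1 to ATR. It had 1003, 1152 and 1131 counts in control replicates 1 to 3 and 416, 301 and 499 counts in Apatinib replicates 1 to 3. The highest Apatinib value, 28.6 CPM, was well under the lowest control value, 51.8 CPM. Mean expression was 57.7 ± 5.77 CPM in the control and 23.3 ± 5.84 CPM with Apatinib (SD, n = 3 each), a fall of 59.7% (log2 fold change -1.31 ± 0.18, standard error; edgeR FDR = 0.00361). CLSPN ranked 53 of the 16290 genes by p value. It stayed a DEG whichever of the 6 replicates was left out, with log2 fold changes between -1.48 and -1.12 and the highest FDR, 0.0237, without control replicate 2.

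CDC25A (ENSG00000164045) encodes the phosphatase that removes inhibitory phosphate from CDK2 and CDK1. Its expression was tightly grouped in the control, at 17.2, 17.2 and 17.5 CPM, and lower in every Apatinib replicate, at 12.0, 6.38 and 10.8 CPM. This was a fall of 44.0% (log2 fold change -0.84 ± 0.209, standard error; edgeR FDR = 0.0279). CDC25A kept its call when any replicate but control replicate 1 or 2 was left out, and without control replicate 2 its FDR was 0.0973. CDC25A was also not called by limma on FPKM, at an FDR of 0.0568 or 0.0603 depending on the pseudocount.

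The promoters of these genes are shown because CLSPN and CDC25A, which had the most negative log2 fold changes of the 10, both hold a match to the E2F recognition sequence close to the transcription start. RefSeq promoter windows (build GRCh38.p14, 250 bases before to 50 after a start) were given for 9 of the 10 genes, 14 windows in all. E2F matches were searched on both strands as TTTCCCGC, TTTGGCGC, TTTCGCGC and TTTGCCGC, and were found in 3 of the 14 windows, 1 each of CLSPN, CDC25A and TIPIN. Of all 35116 promoter windows, 3.31% hold such a match. The CCAAT box, searched as CCAAT on both strands, was found in 12 of the 14 windows, from all of the 9 genes but ATR, and in 34.6% of all windows. Windows of the same gene can overlap, as those of CHEK1 do, so the same box can be counted in several windows. A cell cycle element searched as TTTGAA and TTCGAA on both strands was found in 1 of the 14 windows, from ATM, and in 16.4% of all windows.

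The 4 stretches below run 5′ to 3′ from 120 bases before the start to 10 bases after it, all on the minus strand of GRCh38.p14, with E2F matches and CCAAT boxes (ATTGG on this strand) in capitals. CLSPN lies at chr1:35769969-35770098 and CDC25A at chr3:48188408-48188537. The TIPIN stretch, at chr15:66356676-66356805, belongs to the more downstream of its 2 RefSeq starts, and the other TIPIN window held no E2F match. ATR, at chr3:142578724-142578853, is the contrast without either element.
CLSPN: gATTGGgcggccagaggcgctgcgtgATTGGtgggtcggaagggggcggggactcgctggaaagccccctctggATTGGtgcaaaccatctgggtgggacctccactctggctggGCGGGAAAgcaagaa
CDC25A: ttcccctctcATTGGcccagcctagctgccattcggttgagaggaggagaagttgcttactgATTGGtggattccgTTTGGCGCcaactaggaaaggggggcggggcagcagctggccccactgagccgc
TIPIN: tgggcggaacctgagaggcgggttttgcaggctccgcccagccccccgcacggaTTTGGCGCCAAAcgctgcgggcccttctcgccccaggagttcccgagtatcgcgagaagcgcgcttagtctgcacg
ATR: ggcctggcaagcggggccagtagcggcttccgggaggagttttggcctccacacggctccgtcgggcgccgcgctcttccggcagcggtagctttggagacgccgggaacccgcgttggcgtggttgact
In CLSPN the E2F match spans positions -5 to 3 around the start and follows 3 CCAAT boxes. In CDC25A it begins at position -44, with 2 CCAAT boxes upstream. The TIPIN stretch holds 2 overlapping matches, one on each strand, that begin at positions -66 and -62. TIPIN, which shares this element, was not a DEG, and ATR, ATM and CHEK1 were DEGs with no E2F match in these windows.

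The other mediators moved less than CLSPN. TIMELESS (ENSG00000111602), which forms a fork protection complex with TIPIN, was at 168, 165 and 185 CPM in the control and at 159, 102 and 147 CPM with Apatinib. Every Apatinib replicate was lower, but replicate 1 lay only just under the controls and replicate 2 far below them. The log2 fold change was -0.34 (95% confidence interval -0.69 to 0.00, edgeR FDR = 0.167), and -0.17 without Apatinib replicate 2. TIPIN (ENSG00000075131) was at 16.2, 16.1 and 15.4 CPM in the control and at 10.4, 13.8 and 11.8 CPM with Apatinib. Its log2 fold change of -0.40 (95% confidence interval -0.74 to -0.06, edgeR FDR = 0.105) did not pass the test although the groups did not overlap.

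The sensor kinases ATR and ATM fell with a spread that came mainly from control replicate 3. ATR (ENSG00000175054) was at 66.2, 68.6 and 41.3 CPM in control replicates 1 to 3 and at 31.6, 34.2 and 44.6 CPM in Apatinib replicates 1 to 3. Apatinib replicate 3 was thus above control replicate 3, and the groups overlapped. ATR fell with an edgeR FDR of 0.0472, just inside the limit (log2 fold change -0.67 ± 0.198, standard error). ATM (ENSG00000149311) was at 227, 225 and 151 CPM in the control and at 113, 108 and 142 CPM with Apatinib, without overlap. Its log2 fold change was -0.73 ± 0.171 (standard error; edgeR FDR = 0.0221). ATRIP (ENSG00000164053), the obligate partner of ATR, was at 16.2, 18.3 and 16.9 CPM in the control and at 14.8, 13.3 and 14.1 CPM with Apatinib. Every Apatinib replicate was lower, yet the log2 fold change was -0.28 (95% confidence interval -0.59 to 0.02, edgeR FDR = 0.198).

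Of the effector kinases, CHEK1 fell and CHEK2 was not called. CHEK1 (ENSG00000149554) had 1732, 1708 and 1799 counts in the control and 969, 982 and 1261 counts with Apatinib. Mean expression was 92.1 ± 8.93 CPM in the control and 61.3 ± 9.41 CPM with Apatinib (SD, n = 3 each), a fall of 33.4% without overlap in CPM (log2 fold change -0.59 ± 0.14, standard error; edgeR FDR = 0.0239). CHEK2 (ENSG00000183765) was at 18.5, 17.6 and 18.3 CPM in the control and at 17.1, 13.2 and 17.6 CPM with Apatinib. Apatinib replicates 1 and 3 lay at or near the control level and replicate 2 was lower. The log2 fold change of CHEK2 was -0.18 (95% confidence interval -0.52 to 0.15, edgeR FDR = 0.448), and -0.06 without Apatinib replicate 2. WEE1 (ENSG00000166483), the kinase that opposes CDC25A, showed the same arrangement. It was at 79.5, 83.3 and 86.5 CPM in the control and at 77.5, 51.6 and 80.9 CPM with Apatinib, so that the groups overlapped. Its log2 fold change was -0.25 (95% confidence interval -0.60 to 0.11, edgeR FDR = 0.329), and -0.06 without Apatinib replicate 2.

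The calls of ATR, ATM and CHEK1 were lost in some fits with a replicate left out and with a correction for GC content. Each was a DEG in 2 of 6 fits with a replicate left out, those without Apatinib replicate 3 and without control replicate 3. Over the 6 fits the log2 fold change lay between -0.87 and -0.55 for ATR and between -0.90 and -0.64 for ATM. For CHEK1 it lay between -0.72 and -0.51, so the lost calls of all 3 genes missed the FDR limit, not the fold change limit. Without control replicate 1, and also without control replicate 2, CLSPN was the one DEG among the 10 genes, in fits that called 275 and 300 genes in all. The longest transcripts of ATR, ATM and CHEK1 have a GC content of 40.0%, 39.1% and 41.5%, below the median of 48.5% of the tested genes. Across 3804 tested genes with less than 42% GC, the median deviation in log2 CPM from the mean of the 6 replicates was 0.27 and 0.26 in control replicates 1 and 2, but -0.06 in control replicate 3. It was -0.34, -0.09 and -0.03 in Apatinib replicates 1 to 3. With a correction for GC content, added after seeing the data, the log2 fold changes of ATR, ATM and CHEK1 were -0.40, -0.42 and -0.40, all short of the fold change limit, with edgeR FDR values of 0.0738, 0.0382 and 0.0322. CLSPN and CDC25A, whose transcripts have 44.8% and 51.7% GC, remained DEGs at -1.26 and -0.93. WEE1, at 37.9% GC, changed its sign to 0.09. ATRIP, at 58.7% GC, moved to -0.45 and passed the FDR limit (edgeR FDR = 0.0334) but not the fold change limit, and TIPIN, at 41.3% GC, moved to -0.21 (edgeR FDR = 0.275). TIMELESS and CHEK2 were at -0.44 and -0.25 and were not called. Because the deviation of genes low in GC partly followed the groups, the correction cannot separate base composition from an effect of Apatinib on such genes. Which of them applies was not tested.

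**Figure D2:**
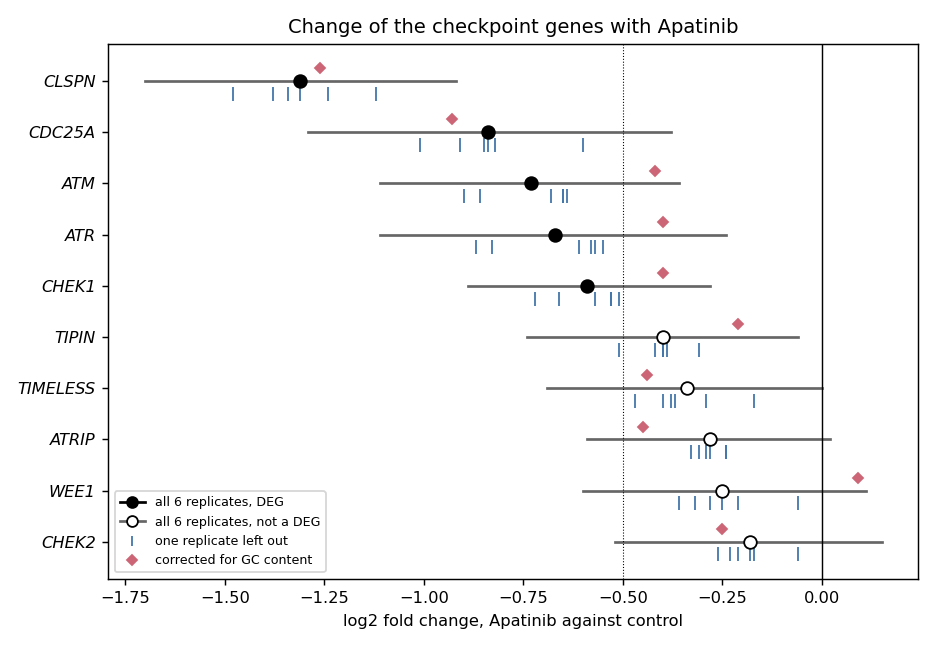
Log2 fold change (Apatinib against control) of the 10 checkpoint genes with 95% confidence intervals, filled where the gene was a DEG; the dotted line marks -0.5, ticks show the 6 fits that left out one replicate and diamonds the fit corrected for GC content. CLSPN stays below -1.1 in every fit shown, while ATM, ATR and CHEK1 move above -0.5 with the GC correction.

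Ratios of 2 genes within one replicate do not depend on library scaling, and 6 were compared between the groups by a two-sided exact permutation test, which cannot go below p = 0.1 with 3 against 3 replicates. The ratio of CLSPN to CHEK1 counts was 0.579, 0.674 and 0.629 in the control and 0.429, 0.307 and 0.396 with Apatinib. The CLSPN transcript was therefore lower relative to the CHEK1 transcript in all 3 Apatinib replicates (difference in log2 ratio -0.75, exact permutation p = 0.1, adjusted p = 0.2). The ratio of CDC25A to WEE1 counts was 0.216, 0.207 and 0.203 in the control and 0.155, 0.123 and 0.133 with Apatinib, a difference in log2 ratio of -0.61 (exact permutation p = 0.1, adjusted p = 0.2). The CDC25A transcript was lower relative to the WEE1 transcript in every Apatinib replicate, and the proteins were not measured. The ratio of CHEK1 to CHEK2 counts was 5.41, 5.34 and 4.50 in the control and 3.30, 4.21 and 4.09 with Apatinib, also without overlap (exact permutation p = 0.1, adjusted p = 0.2). These ratios moved with the correction for GC content: the difference in log2 ratio was -0.15 in place of -0.40 for CHEK1/CHEK2, -1.02 in place of -0.61 for CDC25A/WEE1 and -0.86 in place of -0.75 for CLSPN/CHEK1.

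The other 3 ratios, of the sensor kinases to each other and of partners that act in one complex, overlapped between the groups. The ratio of ATR to ATM counts was 0.292, 0.305 and 0.273 in the control and 0.281, 0.316 and 0.315 with Apatinib, a difference in log2 ratio of 0.07 (exact permutation p = 0.5, adjusted p = 0.6). The ratio of TIMELESS to TIPIN counts ran from 10.3 to 12.0 in the control and from 7.38 to 15.3 with Apatinib (exact permutation p = 0.9). The ratio of ATRIP to ATR counts ran from 0.244 to 0.409 in the control and from 0.317 to 0.467 with Apatinib (exact permutation p = 0.3, adjusted p = 0.45). With the GC correction the differences in log2 ratio of ATRIP/ATR and TIMELESS/TIPIN, 0.37 and 0.04 without it, were -0.05 and -0.22.

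**Figure D3:**
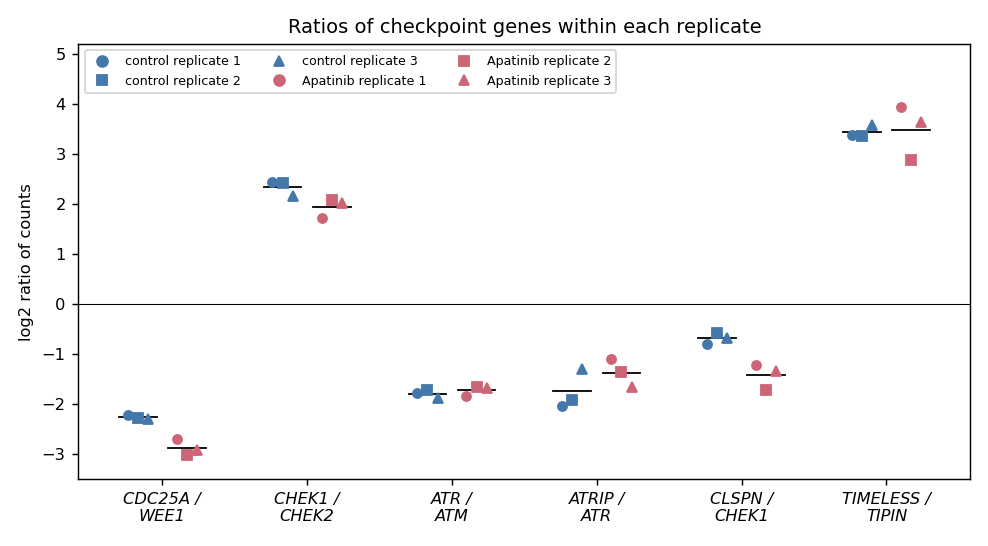
Log2 ratio of the counts of 2 checkpoint genes within each of the 3 control and 3 Apatinib replicates, with group means as black lines. The Apatinib replicates lie below the controls for CDC25A/WEE1, CHEK1/CHEK2 and CLSPN/CHEK1, and the groups overlap for the other ratios.

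The members were next set beside replication genes of the same library. The mean log2 CPM of 38 S phase genes, none of them a checkpoint gene described here, was 6.28, 6.28 and 6.16 in control replicates 1 to 3 and 5.59, 5.06 and 5.74 in Apatinib replicates 1 to 3, a difference of -0.77. The 38 genes varied widely, with log2 fold changes from -1.72 to -0.32, and CCNE2 (-1.72) and CASP8AP2 (-1.31) were as low as CLSPN. CLSPN was lower by more than the mean shift. Its log2 CPM relative to the S phase mean was -0.42, -0.29 and -0.46 in the control and -0.99, -0.96 and -0.90 with Apatinib, a difference of -0.56 (two-sided exact permutation p = 0.1, the smallest possible, adjusted p = 0.167 over the 10 genes). CDC25A had a difference of -0.10 and overlapping groups (exact permutation p = 0.5). ATR, ATM and CHEK1 also overlapped, with differences of 0.12, 0.05 and 0.18.

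The remaining 5 genes were higher relative to the S phase mean, but this depended on the reference. Set beside 14 RPA, clamp and activator genes instead, WEE1, ATRIP and CHEK2 had differences of 0.08, 0.07 and 0.16, and TIMELESS and TIPIN had differences of -0.02 and -0.06. On that scale the other 5 genes had differences below 0, of -0.98 for CLSPN, -0.52 for CDC25A, -0.37 for ATM, -0.30 for ATR and -0.24 for CHEK1. With the GC correction, and relative to the S phase genes again, WEE1, TIPIN, CHEK2, TIMELESS and ATRIP had differences of 0.73, 0.43, 0.39, 0.21 and 0.19. CHEK1, ATR and ATM had differences of 0.25, 0.24 and 0.23, above those of TIMELESS and ATRIP. CLSPN and CDC25A had differences of -0.61 and -0.28. Without the correction, WEE1 was at 0.04, 0.10 and 0.28 in the control and at 0.68, 0.63 and 0.60 with Apatinib relative to the S phase genes, a difference of 0.50. CHEK2, ATRIP, TIMELESS and TIPIN had differences of 0.58, 0.50, 0.41 and 0.36. The groups did not overlap for any of these 5 genes (exact permutation p = 0.1 and adjusted p = 0.167 for each). The TIPIN difference rested mainly on Apatinib replicate 2, at -1.26, since replicates 1 and 3, at -2.20 and -2.17, lay next to the control values of -2.25, -2.26 and -2.20, and without that replicate it was 0.06.

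**Figure D4:**
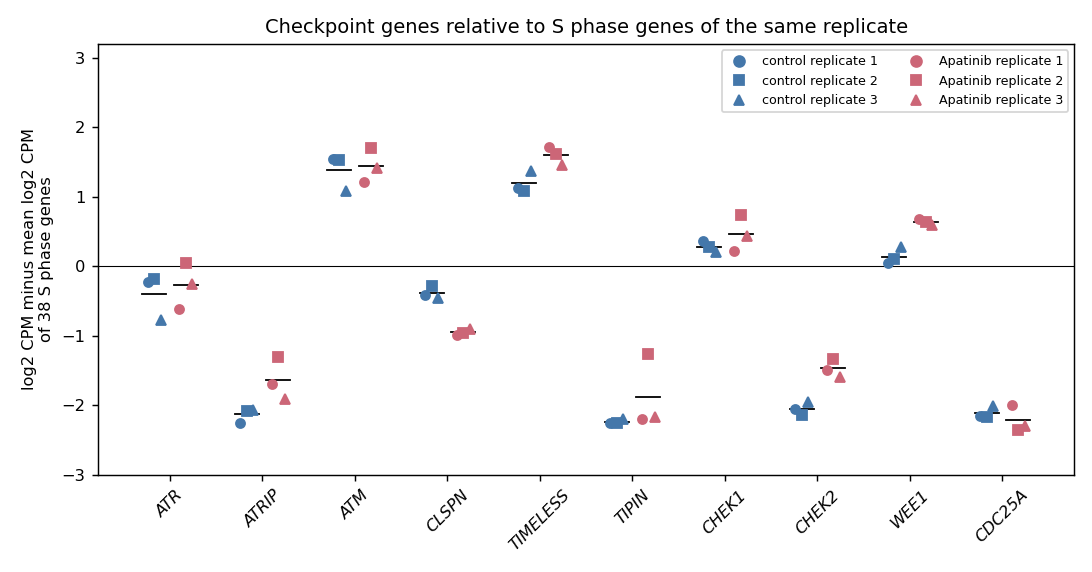
Log2 CPM of each checkpoint gene minus the mean log2 CPM of 38 S phase genes in the same replicate, for 3 control and 3 Apatinib replicates, with group means as black lines. CLSPN is lower with Apatinib on this scale, WEE1, CHEK2, ATRIP, TIMELESS and TIPIN are higher (TIMELESS and TIPIN not so beside the RPA and clamp genes, at -0.02 and -0.06), and the other genes overlap.

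Levels were compared between genes on the FPKM scale, which accounts for transcript length. In the control TIMELESS was the most abundant at 27.8 ± 1.25 FPKM, followed by CHEK1 at 22.7 ± 2.59, WEE1 at 19.2 ± 0.312, ATM at 14.0 ± 3.11 and CLSPN at 11.7 ± 1.24 FPKM (SD, n = 3 each). CHEK2, TIPIN, ATR and ATRIP lay between 6.83 and 4.80 FPKM, and CDC25A was the lowest at 3.29 ± 0.0632 FPKM, although by CPM per kilobase of the longest transcript ATRIP was lower, at 3.74 against 4.58. The replicate ranges of ATM and CLSPN overlapped, as did those of each pair of neighbors from CHEK2 to ATRIP. With Apatinib CLSPN was at 4.98 ± 1.22 FPKM, where its range overlapped those of CHEK2, at 6.24 ± 0.769 FPKM, and TIPIN, at 4.94 ± 0.881 FPKM. WEE1 and CHEK1 were then at 16.2 ± 3.52 and 15.8 ± 1.97 FPKM with overlapping ranges. CDC25A remained the lowest, at 1.91 ± 0.461 FPKM (SD, n = 3 each).

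Some counts may be shared with neighboring genes, since the counting program and its use of strand are not stated. In GENCODE 29, exons of ATRIP share 27.9% of their bases with TREX1, an exonuclease gene on the same strand. TREX1 was at 12.3, 12.3 and 17.3 CPM in the control and at 16.8, 12.6 and 13.3 CPM with Apatinib (log2 fold change 0.02, edgeR FDR = 0.95). Exons of ATM share 0.597% of their bases with NPAT on the opposite strand. NPAT, which encodes a coactivator of histone gene transcription, was at 62.0, 57.3 and 30.6 CPM in the control and at 20.3, 17.4 and 27.2 CPM with Apatinib (log2 fold change -1.21, edgeR FDR = 0.0139). Without control replicate 1 or 2 the FDR of NPAT was 0.0699 or 0.063. CHEK1 and CHEK2 share 1.22% and 6.7% of their exon bases with STT3A and HSCB, whose log2 fold changes were 0.04 and -0.09 and which were not DEGs. CHEK2 also has near-identical pseudogene copies in the genome, so its level is uncertain where reads could match them. ATM shares 0.476% with C11orf65, which was at 0.233 to 1.15 CPM. The pseudogene RPL9P25 shares 21% of the exon bases of TIPIN on the same strand. AC109992.1, a pseudogene on the opposite strand, shares 16.4% of those of ATR. These pseudogenes had 0 counts in every replicate, which does not show how reads from the shared bases were assigned. The other overlapping genes, RF00019 (ATM), AL354864.1 (CLSPN) and RF01210 (WEE1), had at most 1 count in any replicate.

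Most genes of the wider pathway also had a log2 fold change below 0. A list of 45 further checkpoint genes was grouped by role, and all 45 were tested. Of these, 40 were below 0 and 5 above, 8 were DEGs, all lower, and 37 were not DEGs. The median log2 fold change was -0.35. Beside the 5.48% of all genes called lower, the 8 DEGs make up 17.8% of the list.

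Among RPA, the RAD9A-RAD1-HUS1 clamp, its loader and the ATR activators, 2 of 14 genes fell. TOPBP1, which activates ATR directly, was at 146, 144 and 109 CPM in the control and at 68.0, 41.4 and 92.6 CPM with Apatinib (log2 fold change -0.98, edgeR FDR = 0.0247). RFC3, a subunit of the clamp loader, fell by 0.80 on the log2 scale (edgeR FDR = 0.0117). RAD1, HUS1 and RHNO1 had log2 fold changes of 0.05, 0.05 and 0.00 with overlapping groups. Of the 5 fork remodelling and protection genes, WDHD1 (-0.97, edgeR FDR = 0.0244) and DONSON (-0.62, edgeR FDR = 0.0223) fell, both of which act at the replication fork.

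Of the 8 ATM partners and break mediators, 1 fell. MRE11, the nuclease of the complex that activates ATM, was at 69.1, 74.2 and 48.4 CPM in the control and at 30.5, 26.3 and 43.0 CPM with Apatinib (log2 fold change -0.94, edgeR FDR = 0.016). Its partners RAD50 and NBN had log2 fold changes of -0.36 and -0.58 with overlapping groups and were not DEGs. None of 4 kinase partners was a DEG. Of these PRKDC, the catalytic subunit of DNA-dependent protein kinase, had the smallest p value, with an edgeR FDR of 0.0248 but a log2 fold change of -0.50 that did not exceed the limit. Of 7 genes of CDK control, CDK1, the target of WEE1 and CDC25 phosphatases, was at 87.1 ± 16.2 CPM in the control and fell to 42.9 ± 12.8 CPM (SD, n = 3 each; log2 fold change -1.02, edgeR FDR = 0.014). CDC25B and CDC25C, the sister phosphatases of CDC25A, had log2 fold changes of -0.03 and -0.39 and were not DEGs.

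Of 7 checkpoint recovery genes, 2 fell. BORA, which helps activate PLK1, fell by 0.76 on the log2 scale (edgeR FDR = 0.0146). PPM1D, a phosphatase that reverses ATM and CHK2 signaling, fell by 0.59 (edgeR FDR = 0.0393). BTRC and FBXW11, which target CDC25A and Claspin for degradation, had log2 fold changes of 0.12 and 0.05 with overlapping groups. With control replicate 1 or control replicate 2 left out, edgeR called 0 of the 45 genes, where 17 and 15 of them had an unadjusted p under 0.05 (37.8% and 33.3%, against 20.1% and 19.6% of all genes tested).

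**Figure D5:**
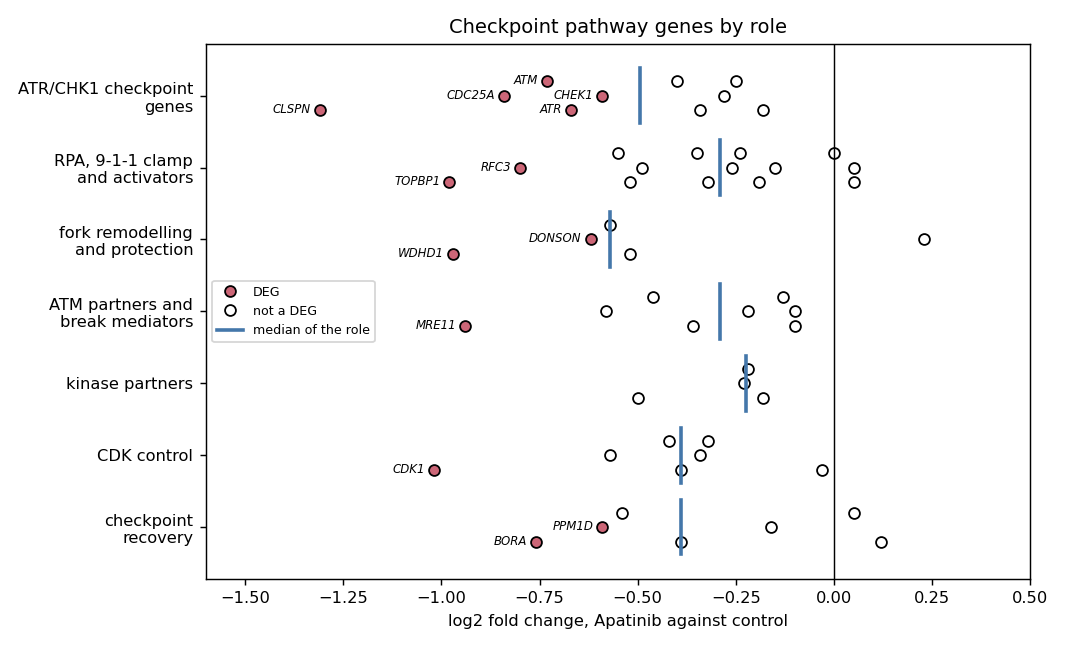
Log2 fold change (Apatinib against control) of the 10 checkpoint genes and of 45 further pathway genes by role, with DEGs filled and named and the median of each role as a blue line. All 13 DEGs lie below 0, and the median of each role lies between -0.57 and -0.22.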

How the data were processed

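RNA of SW872 cells was sequenced by a company named in the study's methods, and read counts per gene were deposited as whole numbers without normalization. The authors also deposited FPKM values for each replicate. The submitters' processing notes name CASAVA, STAR 2.7.1a and hg19; the counting program and annotation are not given in the sources used here, so no gene positions are printed on hg19. One extra column of per-sample values (1 column) was not used. The study's methods name DESeq2.

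Counts were tested in R 4.3.3 with edgeR 4.0.16 (filterByExpr, TMM, quasi-likelihood F test, Benjamini-Hochberg adjustment over 16290 genes), after the scripts were checked on simulated data. DEG limits were those of the study (FDR 0.05, absolute log2 fold change 0.5). CPM used TMM factors and log2 CPM a prior count of 2. Ratios and values relative to S phase genes were compared by exact permutation tests (SciPy 1.17.1). The 38 S phase genes were 37 of Seurat's S phase list and GINS1; genes on the checkpoint lists, WDR76 and MLF1IP were left out. Alternatives used DESeq2 1.42.0, limma 3.58.1 on log2-transformed FPKM (pseudocount 1 or 0.1, mean FPKM above 0.5), other scaling and filters, a replicate block, controls 1 and 2 summed, leaving out each replicate and, added after seeing the data, a GC correction (loess, span 0.3) for the 97.1% of tested genes with a GENCODE 29 transcript. Pairs of replicates were compared by chi-square, using genes that reached 50 counts in both together.

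The 10 genes and all lists were chosen with earlier results of these data known. All 10 genes were named, with every DEG of each pathway role or, where a role held none, the gene with the smallest p value, and genes whose exons overlap a member. RAD1, HUS1, RHNO1, RAD50, NBN, CDC25B, CDC25C, BTRC, FBXW11, CCNE2, CASP8AP2, CDH5, VWF, LPL and COL3A1 were named after their values were seen. The counts carry sampling error within the model, and confidence intervals of fold changes are unadjusted.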

Additional observations from a re-analysis of the deposited data

How the results depend on the processing

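Every one of the 10 checkpoint genes kept its direction under all alternatives, except WEE1, whose log2 fold change was 0.09 with the GC correction. The count of DEGs among them was 5 with DESeq2, the other scaling and both other filters, 2 with the GC correction, 1 with controls 1 and 2 summed and 1 with limma on either FPKM scale (CLSPN in each), and lay between 1 and 5 with a replicate left out (1 without control replicate 1 or 2, 2 without Apatinib replicate 1 or 2). Among the 45 further genes it was 14 with DESeq2, 14 with no filter, 14 with the replicate block, 10 with the GC correction, 3 and 3 with limma and 0 with controls 1 and 2 summed by edgeR (16 genes at an unadjusted p under 0.05, 35.6% against 20.4% of all genes), and lay between 0 and 13 with a replicate left out (0 without control replicate 1 or 2, with 17 and 15 genes at an unadjusted p under 0.05, against 20.1% and 19.6% of all genes). Over all genes it was 292 with controls 1 and 2 summed and 796 and 810 with limma, and lay between 275 and 2594 with a replicate left out (275 without control replicate 1, 300 without control replicate 2, 795 without Apatinib replicate 1). The DEGs among the 45 further genes also had smaller log2 fold changes in some alternatives that left out no replicate. The weakest were -0.85 for TOPBP1, -0.63 for WDHD1 and CDK1, and -0.61 for MRE11. For DONSON, BORA, RFC3 and PPM1D they were -0.56, -0.55, -0.50 and -0.47.

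The correlation of deviations between replicates of the same number was -0.259, 0.0808 and -0.22, so the numbers did not pair the groups, and no Apatinib replicate correlated best with the control of its own number. The replicate block called 2215 genes in all and 5 of the 10. For ratios and relative values the mean paired difference equals the unpaired one by construction, and the exact sign-flip p cannot go below 0.25 with 3 pairs.

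The difference in the TIMELESS/TIPIN ratio lay between -0.18 and 0.35 with a replicate left out and was -0.22 with the GC correction, which also gave -0.05 for ATRIP/ATR. Relative to S phase genes, the difference of ATR lay between -0.07 and 0.29 and that of ATM between -0.10 and 0.17 with a replicate left out, and with the GC correction they were 0.24 and 0.23. Relative to RPA, clamp and activator genes, which shifted by -0.35, the differences of ATR, ATM, CHEK1, TIMELESS and TIPIN were -0.30, -0.37, -0.24, -0.02 and -0.06, those of CLSPN and CDC25A were -0.98 and -0.52, and those of WEE1, ATRIP and CHEK2 were 0.08, 0.07 and 0.16. With CPM per kilobase of the longest transcript, 5 of the 10 genes kept their place in the order of control levels, the 5 most abundant ones, and 3 of 10 kept it with Apatinib (TIMELESS, ATM and CDC25A).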
